A study of Mus musculus with 24 samples.

Results

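The genes described here were 33 genes of the integrated stress response and of amino acid metabolism, taken from the 55487 genes counted in AML-12 cells, an established line of mouse hepatocytes. The list goes by gene names and sets no threshold on a measured value, but it was drawn up with earlier results of these data known. They comprised 6 transcription factors of the ATF4 axis, 8 stress effectors and feedback genes, 2 secreted factors, 10 enzymes that mainly make serine, one-carbon units, proline, asparagine and cysteine, and 7 amino acid transporters. Together they took up 34 rows of the count table, because *Ddit3* was listed a second time under another identifier that had no count in any library. The study asked how palmitate, a saturated fatty acid, and the silencing of *Bmal1* (the clock activator, listed as *Arntl*) and *Chrebp* (the glucose-sensing factor ChREBP, listed as *Mlxipl*) changed gene expression. RNA was measured by BRB-seq, a bulk method that counts the 3′ ends of mRNAs, in 24 libraries of 6 groups with 4 replicates each. BSA cells received the albumin carrier alone and PAL cells received 0.25 mM palmitate, both without transfection. The other 4 groups had the same 0.25 mM palmitate and then 24 hours of endoribonuclease-prepared small interfering RNA (esiRNA), a pool of short double-stranded RNAs. The pool was directed to *Egfp*, a jellyfish gene, in CON (200 nM), to *Bmal1* in BMAL1 (100 nM) and to *Chrebp* in CHREBP (100 nM). BOTH was given the *Bmal1* and *Chrebp* pools together, for 200 nM in all. The total amount of esiRNA was therefore higher in CON and BOTH than in BMAL1 and CHREBP. It cannot be told apart from the gene silenced where 1 of the first pair is compared with 1 of the second, nor from the interaction of both pools. All groups shared a medium without dexamethasone and with charcoal-treated serum.

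In the integrated stress response, kinases that sense amino acid shortage, double-stranded RNA, misfolded protein or lack of heme phosphorylate the translation factor eIF2, which lowers protein synthesis as a whole and raises translation of *Atf4* mRNA. The ATF4 protein then switches on genes for amino acid synthesis, uptake and tRNA charging, together with further factors such as CHOP, the product of *Ddit3*, and feedback genes such as *Ppp1r15a*, whose product brings a phosphatase back to eIF2. In hepatocytes this program is known to respond to amino acid supply, protein folding stress and lipid load. ATF4 is controlled largely by translation, so the amount of its mRNA does not measure its protein.

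The libraries held between 5399700 and 11237474 counts in genes. Of the 10 hepatocyte markers examined, 7 had at least 641 counts in every library, while *Alb* (albumin) was low at 86 to 242 counts, and *Apoa1* and *Apoa2*, usual products of hepatocytes, had 2 to 15 and 0 to 9. These markers also moved. In PAL against BSA 2 of the 9 tested were higher (22.2%, against 6.65% of all genes) and 4 lower (44.4%, against 7.6%). In BOTH 1 of 10 was higher than in CON (10%, against 5.99%) and 3 lower (30%, against 3.75%), and 1 of 10 was higher than in BMAL1 (10%, against 6.35%) and 4 lower (40%, against 4.08%). In CON against PAL 1 of 10 was higher (10%, against 1.59%) and 1 lower (10%, against 0.92%). In BMAL1 against CON 1 of 10 was higher (10%, against 0.166%). In CHREBP against BMAL1 and in the interaction 1 of 10 was lower (10%, against 0.915% and 0.267%). None was called in CHREBP against CON or in BOTH against CHREBP. The part of these markers in the results was not tested. Of the markers of fibroblasts, macrophages and endothelial cells, *Cd68* had 5 to 27 counts, *Csf1r*, *Col1a1*, *Ptprc* and *Pecam1* had at most 17, and *Col1a2*, *Adgre1*, *Cdh5* and *Kdr* had none. *Arntl* was 44.7 ± 11.6 normalized counts in CON, 26.0 ± 4.82 in BMAL1 and 22.8 ± 6.64 in BOTH (SD, n = 4). The difference was given no adjusted p by DESeq2 in BMAL1 against CON (−0.78 on the log2 scale), so it was not called there, and was called in BOTH (−0.98, *Padj* = 0.00994). *Mlxipl* was 35.6 ± 7.26 in CON, 25.9 ± 4.75 in CHREBP and 17.04 ± 4.91 in BOTH, and its fall in CHREBP was not called (−0.46 on the log2 scale, DESeq2 *Padj* = 0.593), whereas that in BOTH was (−1.07, *Padj* = 0.00762). Raw counts were low, at 15 to 85 for *Arntl* and 12 to 89 for *Mlxipl*. A likelihood ratio test over the 4 esiRNA groups called both genes. The study reports both as silenced in its transcriptome data and by quantitative PCR. By the row letters and column numbers of their library names, the untransfected groups shared column 1. The groups with transfection but no *Chrebp* esiRNA shared column 2, and those with *Chrebp* esiRNA column 3. The effect of a column therefore cannot be told apart from that of *Chrebp* esiRNA, nor from that of transfection. Rows A to D and E to H were likewise aligned with the groups within each column. The labels do not say that replicates were separate cultures, so the p-values measure the spread between these libraries only.

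ATF4 and its partners bind the composite C/EBP-ATF response element (CARE), whose letters were searched as TGATGNAA on both strands of the 250 bases before each start site. Of the 28 members matched to a RefSeq promoter (build GRCm38.p6), 8 (28.6%) held the letters, against 3.91% of 27025 genes. These were *Asns*, *Atf3*, *Chac1*, *Nupr1*, *Pck2*, *Pycr1*, *Slc7a11* and *Vldlr*. The list was drawn up around the ATF4 axis, so the share of 28.6% was in part set by the choice of genes. The E-box letters CACGTG, to which BMAL1 and its partner CLOCK bind, stood in 3 of the 28 (10.7%), *Aldh18a1*, *Gdf15* and *Nupr1*, against 6.86% of genes. CARE windows are shown for all of the 8 CARE genes but *Pycr1* and *Vldlr*, and E-box windows for *Aldh18a1* and *Gdf15*. *Pycr1*, *Vldlr* and *Slc7a11* were called in no comparison below. Whether a motif goes with a call was not tested. Each sequence is read 5′ to 3′ in the direction of its gene, and capitals mark the motif or its reverse complement.
Asns, CARE, chr6:7693210-7693252, minus strand: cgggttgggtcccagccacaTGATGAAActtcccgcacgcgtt
Atf3, CARE, chr1:191183416-191183463, minus strand: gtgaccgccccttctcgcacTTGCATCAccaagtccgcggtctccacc
Chac1, CARE, chr2:119351029-119351076, plus strand: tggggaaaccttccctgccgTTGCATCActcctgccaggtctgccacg
Nupr1, CARE, chr7:126625553-126625600, minus strand: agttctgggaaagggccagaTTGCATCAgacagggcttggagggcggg
Pck2, CARE, chr14:55540143-55540190, plus strand: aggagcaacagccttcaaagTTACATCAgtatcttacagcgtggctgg
Slc7a11, CARE, chr3:50443633-50443680, minus strand: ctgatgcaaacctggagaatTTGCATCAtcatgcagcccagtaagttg
Aldh18a1, E-box, chr19:40588497-40588542, minus strand: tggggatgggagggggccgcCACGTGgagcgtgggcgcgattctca
Gdf15, E-box, chr8:70632153-70632198, minus strand: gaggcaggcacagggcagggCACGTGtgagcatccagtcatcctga
The motif of *Asns* began 23 bases before the start site, the nearest of those shown, and that of *Chac1* 193 bases before it. The second CARE of *Slc7a11*, which lies 66 to 59 bases before its start, can be read in lower case at the left of the window shown. The match is one of letters only.

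A member was called when its Benjamini-Hochberg adjusted p from DESeq2 was under 0.1 over all genes tested. All 33 members had enough counts to enter every fit, and 23 were called in at least 1 comparison. The share of all genes called in at least 1 comparison was not counted, so the 23 has no background. Shares are given below for each comparison. In CHREBP or BOTH against CON or BMAL1, in BOTH against CHREBP and in the interaction term, the count called lower was 0 with DESeq2, 0 with edgeR and 0 at an unadjusted p under 0.05, and so was the count called higher in CON against PAL. The 10 members called in no comparison were *Ddit4*, *Sesn2*, *Vldlr*, *Stc2*, *Psat1*, *Pycr1*, *Slc7a5*, *Slc7a11*, *Slc1a5* and *Slc38a2*. Of these, *Slc7a5*, the leucine-importing partner of *Slc3a2*, was close to the limit of detection at 4.49 to 10.4 normalized counts in CON and 7.74 to 16.3 in BOTH, so that its large fitted fold changes carry wide errors. *Slc38a2*, which imports small neutral amino acids and is a usual target of amino acid shortage, was well covered, with 1504 to 1821 normalized counts in CON and 1503 to 1733 in BOTH (−0.02 on the log2 scale, 95% interval −0.16 to 0.12).

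**Figure D1:**
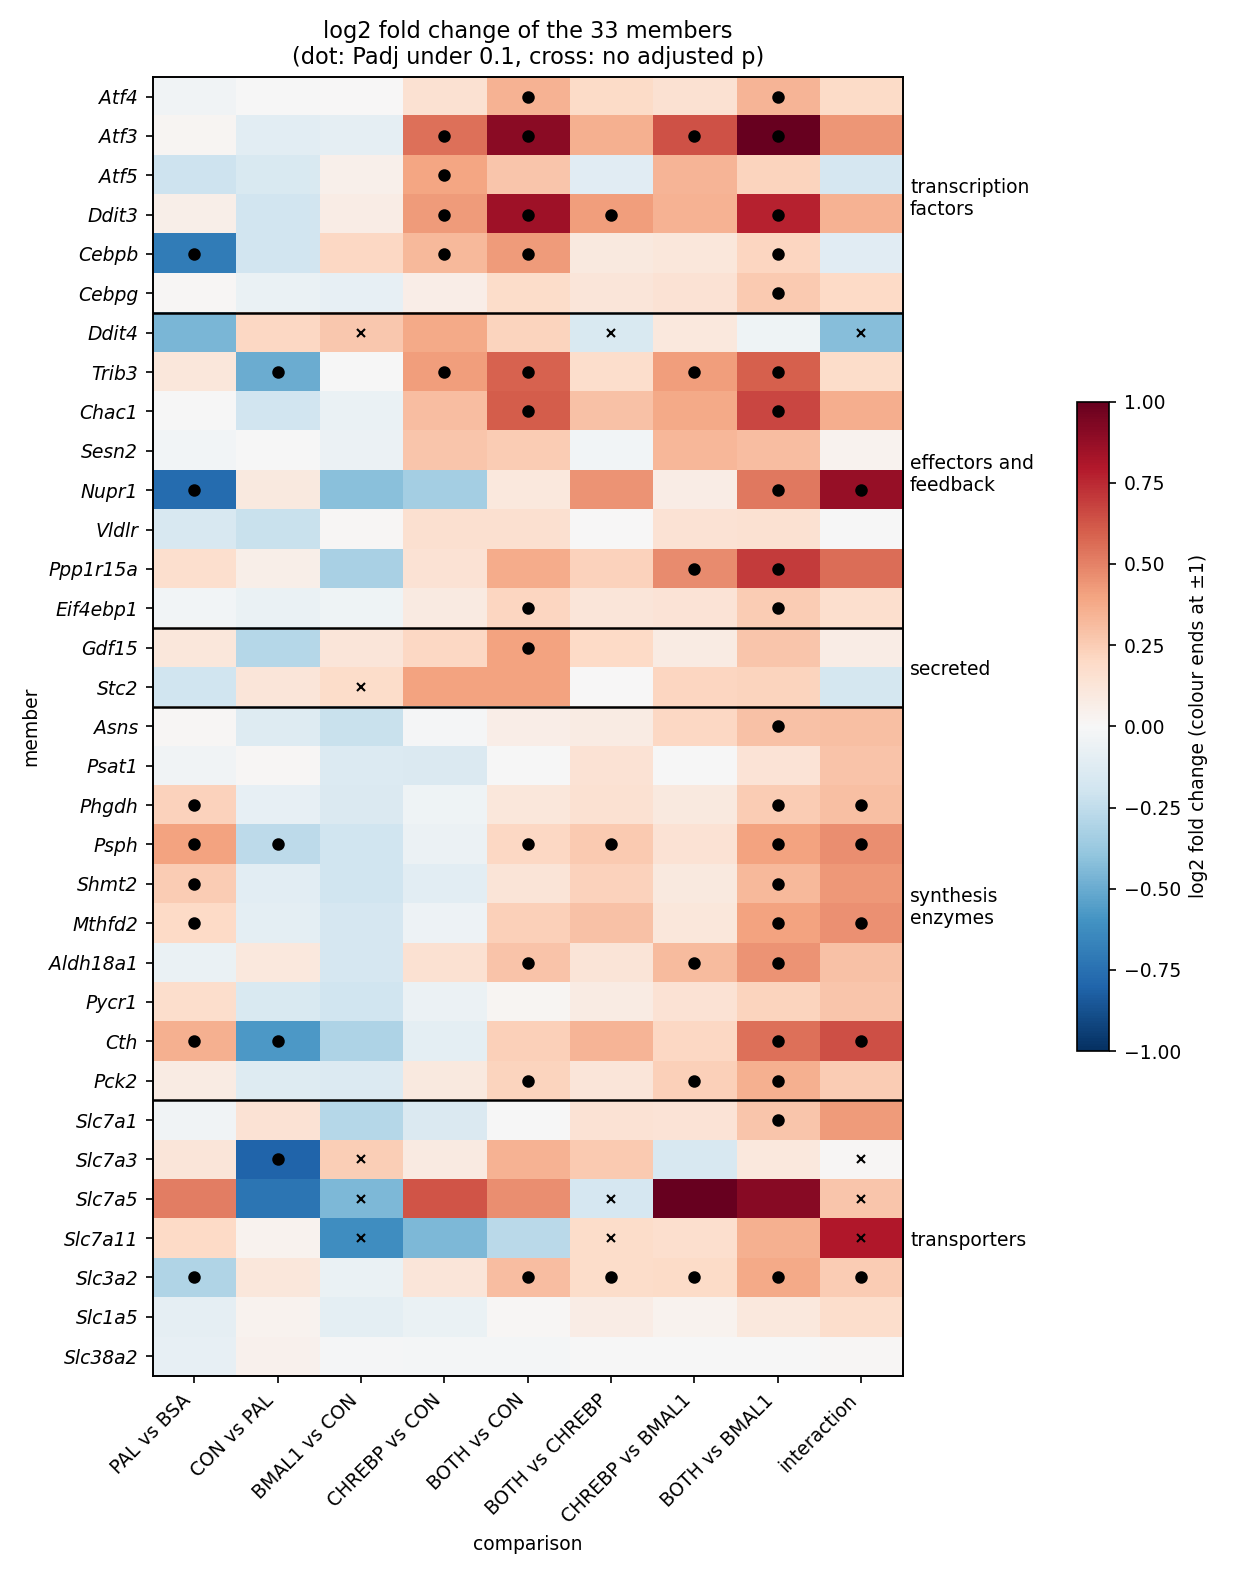
Log2 fold change (colour, ends at ±1) of the 33 members (rows, by role) in 8 comparisons and the interaction term (columns). Dots mark members with *Padj* under 0.1 and crosses those given no adjusted p. Most dots of the transcription factors lie in the columns of CHREBP and BOTH against CON or BMAL1, with *Cebpb* dotted also under palmitate and *Ddit3* also in BOTH against CHREBP. The palmitate column holds dots mainly among the enzymes.

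Palmitate alone (PAL against BSA) was followed by higher counts of serine, one-carbon and cysteine enzymes, with no call for *Atf4*, *Ddit3*, *Trib3*, *Chac1* or *Asns*. Of the 33 members, 5 were called higher (15.2%, against 6.65% of the 12827 genes tested) and 3 lower (9.09%, against 7.6%), and the median log2 fold change was 0.01, against 0.005 over all genes. All 5 that rose were among the 10 synthesis enzymes. In bulk RNA a change in the share of cells that express a gene and a change in its RNA per cell cannot be told apart. *Psph*, which makes serine from phosphoserine, had 1147, 879, 915 and 1079 normalized counts in BSA and 1446, 1210.1, 1387 and 1261 in PAL. The groups did not overlap, and the rise was 0.41 ± 0.09 on the log2 scale (SE, DESeq2 *Padj* = 0.000113). *Cth*, which makes cysteine from cystathionine, went from 337, 253, 269 and 273 to 369.6, 358, 341 and 379 (0.36 ± 0.11, *Padj* = 0.0132), again with no overlap. For *Phgdh*, the first enzyme of serine synthesis, the values were 2487, 2389.6, 2565 and 2310.1 in BSA and 3189, 2727, 2848 and 2675 in PAL (0.23 ± 0.06, *Padj* = 0.00485). These groups were also apart, although *Phgdh* shares stretches of its 3′ end with 12 other genes, so its counts are uncertain. *Shmt2* and *Mthfd2*, which carry serine-derived carbon through the mitochondrial folate cycle, rose by 0.25 (*Padj* = 0.0433) and 0.20 (*Padj* = 0.0705), with overlapping groups. Both calls were lost without BSA replicate 4 and without PAL replicate 1, which left 3 members higher, and in a fit of all 24 libraries together. *Shmt2* also lost its call without BSA replicate 3 or PAL replicate 2, and *Mthfd2* without BSA replicate 2 or PAL replicate 3. In the remaining enzymes, *Psat1*, the transaminase between *Phgdh* and *Psph*, did not follow them (−0.04, 95% interval −0.16 to 0.09).

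The 3 members lower with palmitate came from other roles. *Cebpb*, a factor of hepatic and inflammatory gene control that also pairs with ATF4, had 2422, 2751, 2963 and 2865 normalized counts in BSA and 1811, 1466, 1535 and 1939 in PAL. It fell by 0.70 on the log2 scale with no overlap (*Padj* = 4.53e-14). *Nupr1*, a stress-induced chromatin protein, had 239.8, 211, 159 and 270.2 in BSA and 136, 143, 101 and 131 in PAL (−0.77 ± 0.16, *Padj* = 6.31e-05). *Slc3a2*, the heavy chain shared by several amino acid exchangers, went from 3097, 3104, 2693 and 2842 to 2657, 2222, 2351 and 2268 (−0.30 ± 0.07, *Padj* = 0.000288). No library of PAL reached the lowest BSA library in any of the 3 genes. *Slc3a2* holds repeats in its 3′ end that 60 other genes also carry.

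The core of the axis did not pass the test with palmitate. *Atf4* had 2246, 2168, 2211 and 2153 normalized counts in BSA and 2145, 2284, 1962 and 2117 in PAL (−0.04, 95% interval −0.16 to 0.08). *Ddit3* (CHOP) had 124, 136, 145 and 126 and 125, 159, 143 and 124 (0.06, interval −0.23 to 0.35). The groups overlapped in both. *Trib3*, a pseudokinase induced by ATF4 and CHOP, had 340.0, 269, 317 and 246 and 297, 331, 318 and 320.3 (0.11, interval −0.11 to 0.33). *Chac1*, which degrades glutathione, had 212, 209, 179 and 197 and 256, 153, 214 and 175 (−0.00, interval −0.29 to 0.28). *Asns*, asparagine synthetase, had 2085, 2054, 1959 and 1945 and 2088, 2285, 1979 and 1726 (0.01, interval −0.14 to 0.16). Of the 14 further ATF4 targets tested, 5 were called lower (35.7%, against 7.6% of all genes), namely *Gadd45a*, *Gpt2*, *Herpud1*, *Ndrg1* and *Vegfa* (−0.44 to −0.27).

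**Figure D2:**
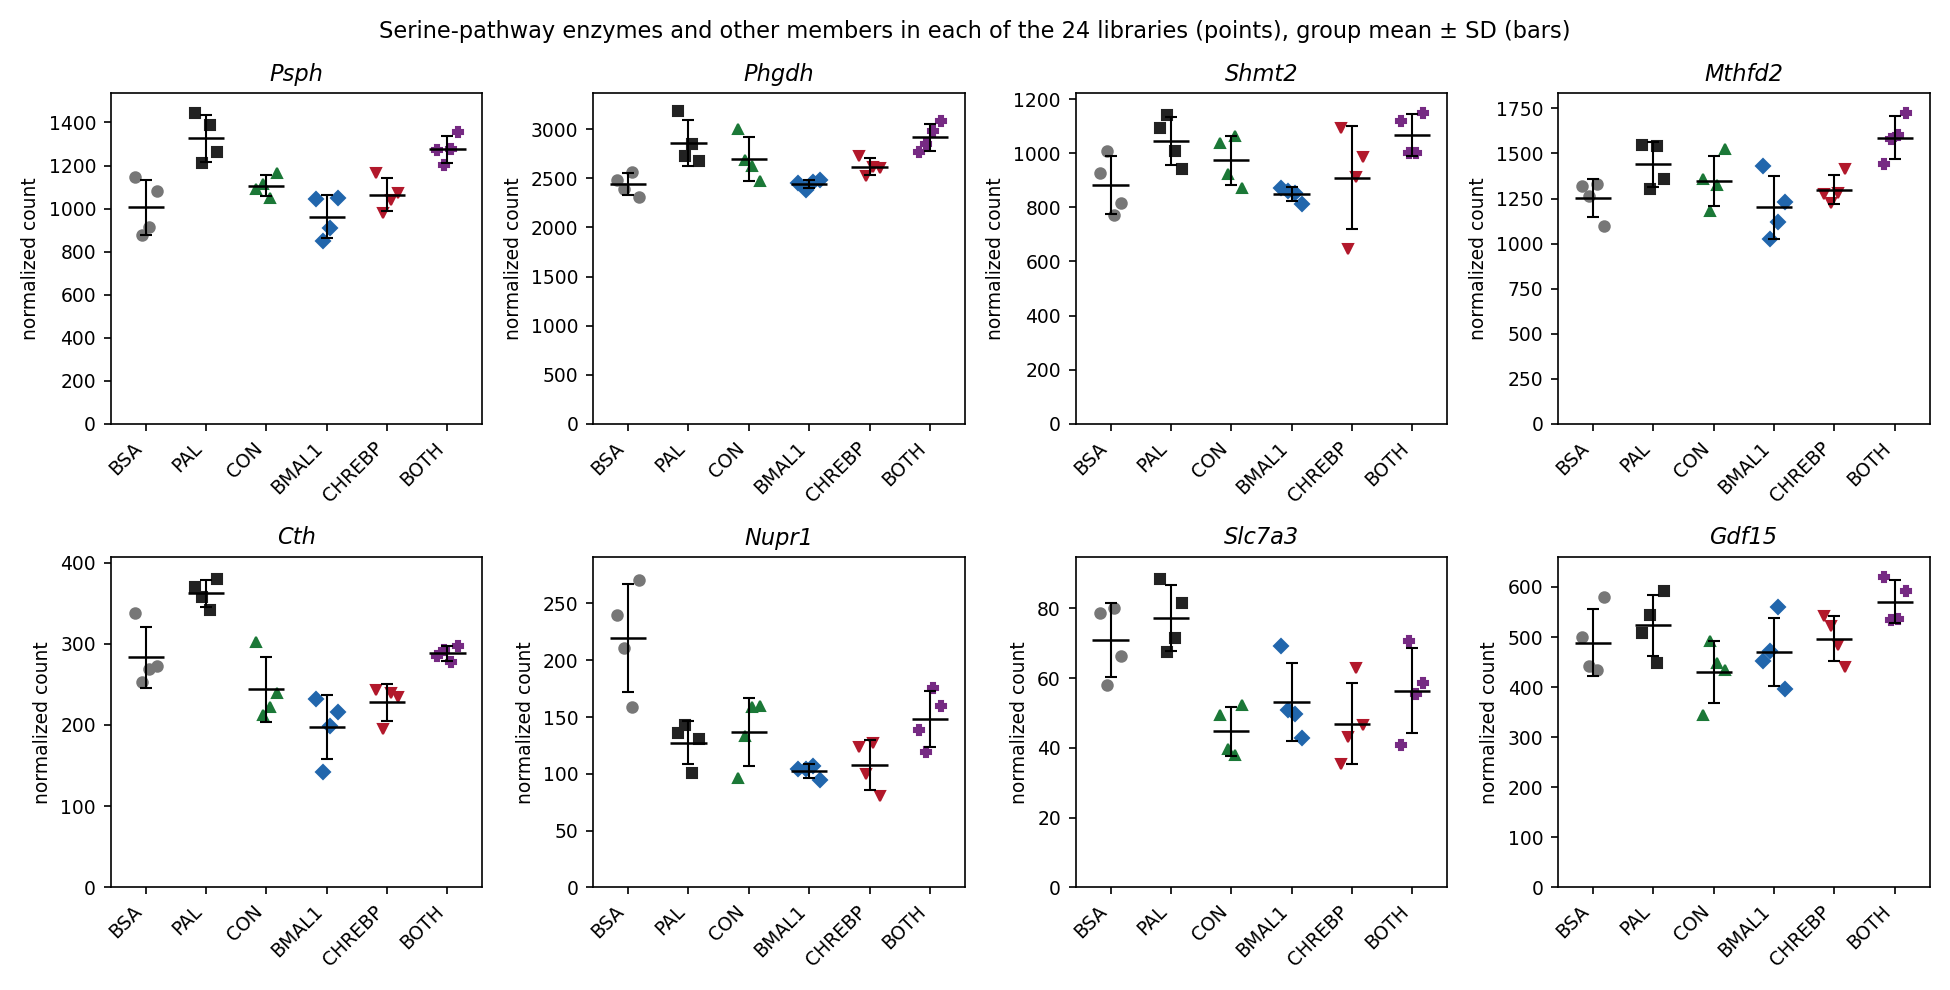
Normalized counts (vertical axes, from 0) of 8 members in the 4 libraries of each group (points), with group mean and SD (bars). In *Psph*, *Phgdh* and *Cth* the 4 PAL libraries lie above all BSA libraries, and in *Nupr1* below them.

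After transfection with the *Egfp* pool on top of palmitate (CON against PAL), 4 members were called lower (12.1%, against 0.92% of the 12928 genes tested) and none higher (1.59% of genes were called higher). *Cth* had 369.6, 358, 341 and 379 normalized counts in PAL and 302, 212, 222 and 240.0 in CON (−0.58 ± 0.11, *Padj* = 9.28e-05), so that every CON library lay below every PAL library. *Trib3* had 297, 331, 318 and 320.3 and 211, 212, 237 and 242 (−0.50 ± 0.10, *Padj* = 0.000273). *Psph* had 1446, 1210.1, 1387 and 1261 and 1092, 1115, 1051 and 1167 (−0.26 ± 0.07, *Padj* = 0.0109). The palmitate rise of *Psph* and *Cth* was thus followed by a fall after transfection, and both comparisons share the PAL libraries. *Slc7a3*, an importer of arginine and lysine, had 88.4, 67.4, 71.6 and 81.6 in PAL and 49.4, 39.8, 37.8 and 52.2 in CON (−0.80 ± 0.21, *Padj* = 0.0102). Without CON replicate 3, *Psph* and *Slc7a3* were no longer called and 2 members remained lower, and *Slc7a3* was also lost without CON replicate 2. Without PAL replicate 1, *Slc3a2* was called higher, 1 member in place of 0. *Atf4*, *Ddit3*, *Chac1* and *Asns* were not called (−0.00, −0.19, −0.19 and −0.13). Of the 9 interferon-induced genes tested, 8 were higher in CON (88.9%, against 1.59% of all genes), with a median of 4.74. The part of these genes in the result was not tested.

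Against CON, *Chrebp* esiRNA was followed by higher counts of 4 of the 6 transcription factors, *Atf3*, *Cebpb*, *Ddit3* and *Atf5*, and of *Trib3*. Of the 33 members, 5 were called higher (15.2%, against 2.65% of the 13883 genes tested) and none lower (0.771% of genes were called lower), and the median was 0.10, against 0.00 over all genes. *Atf3*, an early stress-induced repressor and partner of ATF4, had 518, 488, 538 and 555 normalized counts in CON and 1028, 715, 664 and 669 in CHREBP. CHREBP replicate 1 stood far above the other three, which themselves lay above every CON library (0.55 ± 0.13, *Padj* = 0.00193). *Cebpb* had 1364, 1482, 1574 and 1508 and 1621, 2096, 1806 and 1904 (0.32 ± 0.07, *Padj* = 0.000823). *Ddit3* had 127, 119, 127 and 109 and 185, 166, 161 and 138 (0.43 ± 0.14, *Padj* = 0.0525). Neither pair of groups overlapped. *Atf5*, whose translation is controlled like that of *Atf4*, had 171, 191, 206 and 197 and 279, 206, 250.2 and 272 (0.39 ± 0.13, *Padj* = 0.0781). *Trib3* had 211, 212, 237 and 242 and 347, 272, 309.7 and 276 (0.42 ± 0.12, *Padj* = 0.0311). In *Trib3* every CHREBP library was above every CON library. In *Atf5* the groups were barely apart, at 205.7 in CHREBP replicate 2 against 205.6 in CON replicate 3.

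CHREBP and CON also differed in library column and in total esiRNA, and all 10 interferon-induced genes examined were higher in CHREBP, with a median log2 fold change of 3.13. The part of these in the result was not tested. *Atf3* and *Cebpb* kept their calls when any library of the esiRNA groups was left out. The other three were called less firmly. The count of 5 became 3 without CON replicate 1 or CON replicate 4, and 2 without CON replicate 2, CHREBP replicate 1 or CHREBP replicate 3. *Ddit3* also lost its call without CHREBP replicate 2. *Atf5* also lost it without BMAL1 replicate 2 or CHREBP replicate 4, and with edgeR. *Atf4* itself had 2115, 2120.2, 2236 and 2032 normalized counts in CON and 2649, 2149, 2333 and 2336 in CHREBP (0.15, interval 0.02 to 0.28, *Padj* = 0.277), and without CHREBP replicate 2 it was called (*Padj* = 0.0980). *Chac1* (0.31, *Padj* = 0.33) was not called, and its groups overlapped. The synthesis enzymes had a median of −0.06, with 0 of 10 called by DESeq2 (0 at an unadjusted p under 0.05). *Asns* had 1806, 1823, 1906 and 1842 in CON and 2076, 1736, 1649.8 and 1862 in CHREBP (−0.01, interval −0.23 to 0.21).

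**Figure D3:**
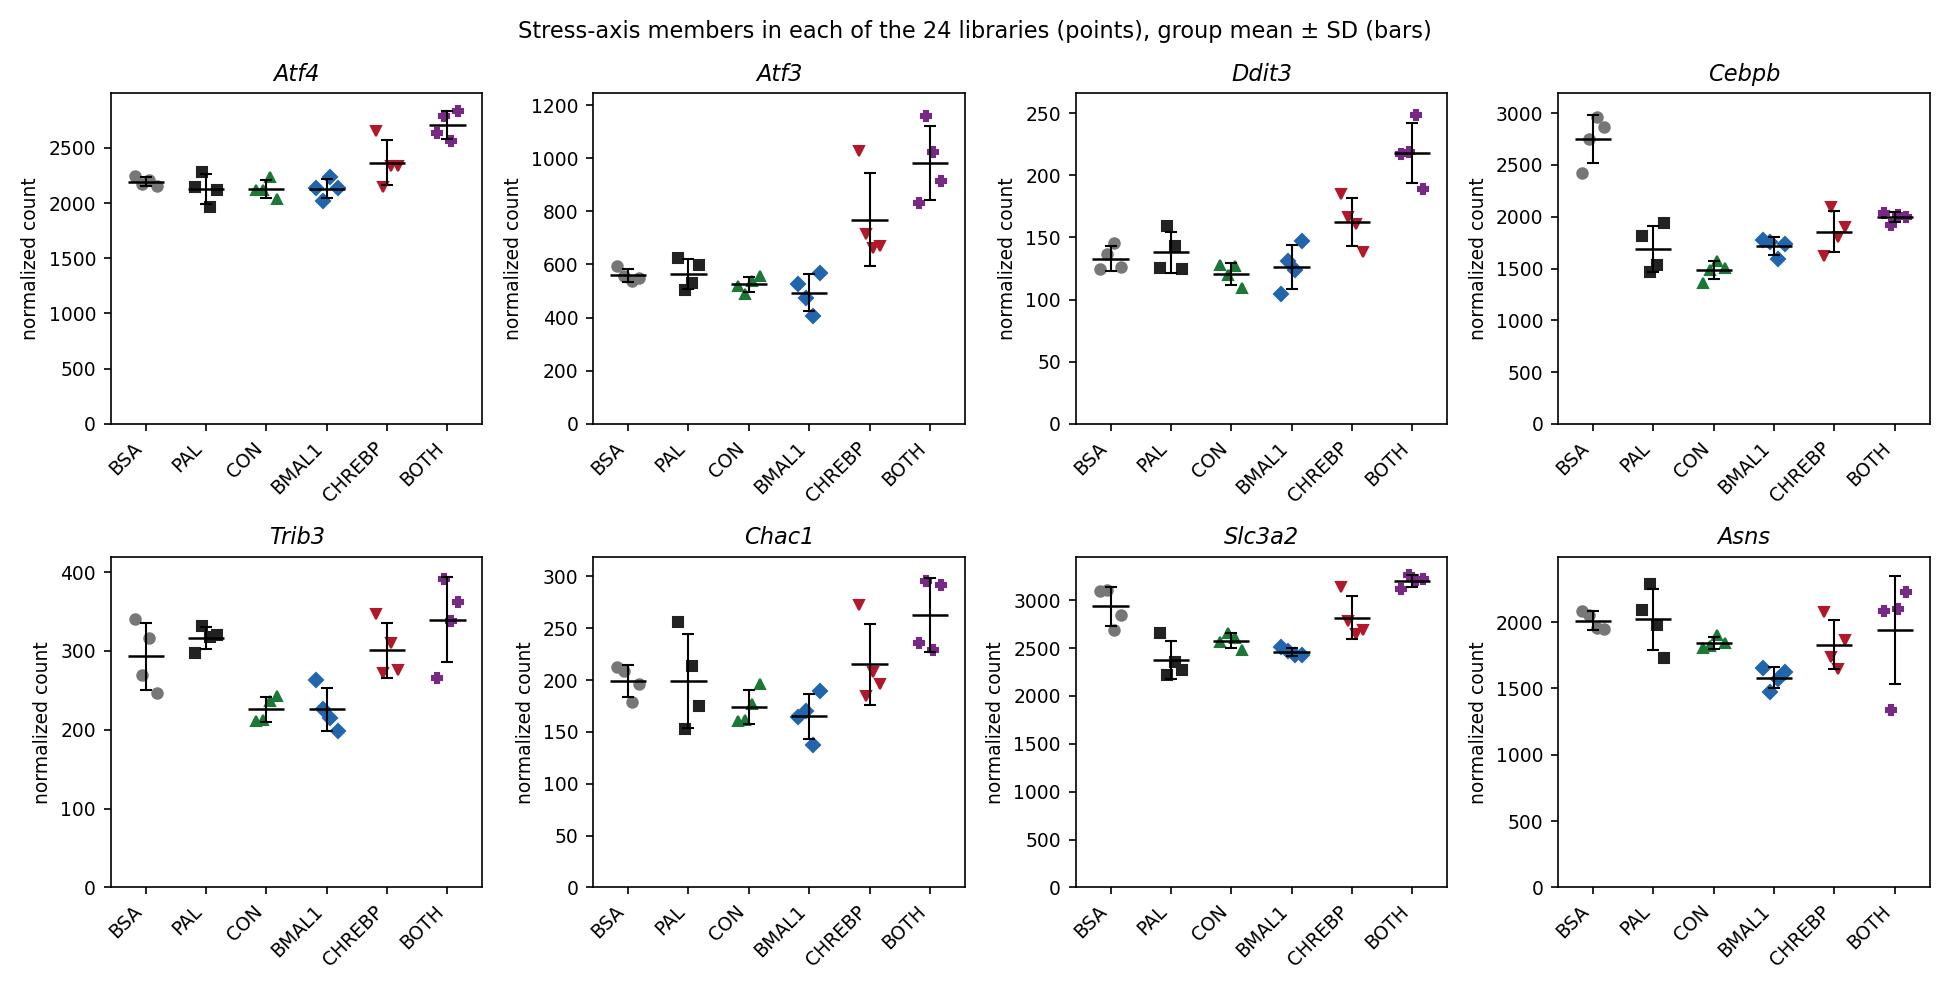
Normalized counts (vertical axes, from 0) of 8 members of the axis in the 4 libraries of each group (points), with group mean and SD (bars). In *Atf3*, *Ddit3*, *Cebpb* and *Trib3* the CHREBP and BOTH libraries lie above the CON libraries, while 1 BOTH library of *Asns* (1336) stands below the rest.

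With both genes silenced, members of every role were called higher than in CON. In all, 12 were called (36.4%, against 5.99% of genes) and none lower (3.75% of genes). The median was 0.24 and 29 of 33 members had a positive fold change, against a median of −0.01 over all genes. The 10 interferon-induced genes were higher here too, by even more at the median than in CHREBP against CON, BOTH and CON lay in different columns, and the part of these in the result was not tested. *Atf3* had 518, 488, 538 and 555 normalized counts in CON and 833, 1158, 1022 and 916 in BOTH (0.90 ± 0.13, *Padj* = 5.62e-10). *Ddit3* had 217, 218, 248 and 189 in BOTH, against at most 127 in CON (0.85 ± 0.13, *Padj* = 1.39e-08). The 2 genes had the largest fold changes of the members called here. *Ddit3* overlaps *Mars* on the other strand, which was itself higher in BOTH (0.35, *Padj* = 2.85e-06), and since the use of strand is not stated their reads cannot be fully told apart. *Atf4* mRNA had 2631, 2787, 2563 and 2833 in BOTH, all above the highest CON library of 2236 (0.34 ± 0.07, *Padj* = 7.48e-06). *Cebpb* had 2032, 1924, 2015 and 2002 (0.42 ± 0.07, *Padj* = 5.23e-07), again above all of CON.

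Among the effectors, *Chac1* had 161, 162, 177 and 196 in CON and 236, 295, 229 and 292 in BOTH (0.60 ± 0.14, *Padj* = 0.000476). *Trib3* had 265, 392, 338 and 362 in BOTH (0.59 ± 0.12, *Padj* = 7.54e-05). Both were apart from CON. *Eif4ebp1*, which holds back cap-dependent translation, rose by 0.21 (*Padj* = 0.0351), a call lost without CON replicate 4 or BOTH replicate 1. *Gdf15*, a hormone that lowers food intake and is secreted under stress, had 344, 492, 449 and 435 in CON and 621, 535, 536 and 591 in BOTH (0.40 ± 0.12, *Padj* = 0.00912). The lowest BOTH library was above the highest CON library. *Stc2*, the other secreted member, was sparsely counted and not called (0.41, *Padj* = 0.349).

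Of the transporters, *Slc3a2* alone was called, with 2560.2, 2661, 2605 and 2475 in CON and 3113, 3259.8, 3208 and 3223 in BOTH (0.31 ± 0.06, *Padj* = 1.78e-06). The 4 BOTH libraries lay close together and above all of CON. Among the enzymes, *Aldh18a1*, the first step of proline synthesis, rose by 0.28 (*Padj* = 0.0313), with overlapping groups. *Pck2*, the mitochondrial phosphoenolpyruvate carboxykinase, rose by 0.22 (*Padj* = 0.0169) and *Psph* by 0.20 (*Padj* = 0.0898), both without overlap. *Pck2* shares stretches of its 3′ end with 53 other genes, so its counts are uncertain here and in its other comparisons. These were the less firm calls. *Aldh18a1* lost its call without CON replicate 2, CON replicate 3 or BOTH replicate 4, and *Pck2* without CON replicate 2. *Psph* lost it with edgeR, with all 24 libraries in one fit, and in 8 of the 16 fits without 1 library, with adjusted p up to 0.263. *Asns* was not called (0.07, interval −0.15 to 0.29), and its values in BOTH were 2087, 1336, 2099 and 2230.3. BOTH replicate 2 stood far below the rest, and without it *Asns* was higher in BOTH by 0.21 (*Padj* = 0.0509).

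Silencing of *Bmal1* alone gave no called member against CON. DESeq2 called 0 of 33 (0.166% of genes were called higher and 0.324% lower), as did edgeR, and 5 members of low count were given no adjusted p. At an unadjusted p under 0.05 there were 10 members, 9 of the 33 being lower in BMAL1, as were 3.4% of all genes. All 10 synthesis enzymes had a negative fold change (−0.31 to −0.14, median −0.18), and in 4 of them, *Asns*, *Psph*, *Shmt2* and *Pycr1*, the groups did not overlap, as in 2.82% of all genes with BMAL1 the lower group. The gap was narrow in *Psph*, *Shmt2* and *Pycr1*. *Asns* had 1806, 1823, 1906 and 1842 normalized counts in CON and 1652, 1476, 1573 and 1624 in BMAL1 (−0.22, *Padj* = 0.652). *Psph* had 1092, 1115, 1051 and 1167 and 1044, 849, 911 and 1048 (−0.20, *Padj* = 0.387). Neither passed the test. *Slc7a1*, which imports cationic amino acids, had 438, 439.7, 433 and 391 and 320.4, 358, 386 and 334 (−0.28, *Padj* = 0.292). *Cebpb* had a positive fold change, with 1364, 1482, 1574 and 1508 in CON and 1776, 1756, 1592 and 1741 in BMAL1 (0.21, *Padj* = 0.268), and its groups were apart. For *Atf4* the interval was −0.13 to 0.13, around a fold change of 0.00. Of the 10 interferon-induced genes, 6 were called lower in BMAL1 than in CON (median −2.18), and their part in these values was not tested.

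BOTH against BMAL1 compares cells with and without *Chrebp* esiRNA in the presence of *Bmal1* esiRNA, at 200 nM against 100 nM in all and in different columns, and it had the most called members. In all, 20 of 33 were higher (60.6%, against 6.35% of genes) and none lower (4.08% of genes), with a median of 0.31. All 10 interferon-induced genes were higher as well, with a median of 6.01, and their part in the result was not tested. The members called comprised 5 of 6 transcription factors, 5 of 8 effectors, 8 of 10 synthesis enzymes and 2 of 7 transporters. *Atf3* (0.99 ± 0.13), *Ddit3* (0.77 ± 0.14), *Ppp1r15a* (0.70 ± 0.16) and *Chac1* (0.67 ± 0.14) had the largest fold changes of those called. Also called were *Trib3* (0.60, *Padj* = 8.04e-05), *Slc3a2* (0.38, *Padj* = 1.25e-09), *Atf4* (0.34, *Padj* = 8.81e-06) and *Eif4ebp1* (0.26, *Padj* = 0.00531). These kept their calls in every alternative and in every fit without 1 library. *Ppp1r15a*, the eIF2 phosphatase subunit, had 190.1, 141, 167 and 114 normalized counts in BMAL1 and 284, 205, 221 and 281 in BOTH (*Padj* = 0.000298). Every BOTH library was above every BMAL1 library. *Mthfd2* had 1431, 1027, 1118 and 1230.0 and 1441, 1583, 1602 and 1727 (0.40 ± 0.10, *Padj* = 0.000702). *Aldh18a1* had 846, 795, 825 and 862 and 975, 1111, 1145 and 1308 (0.45 ± 0.09, *Padj* = 4.81e-05). In both enzymes the lowest BOTH library was above the highest BMAL1 library.

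The other enzymes called were *Cth* (0.55), *Psph* (0.40), *Pck2* (0.35), *Shmt2* (0.33), *Asns* (0.29) and *Phgdh* (0.25), so that *Psat1* and *Pycr1* alone were not. Serine, one-carbon and proline enzymes outside the members did not follow them. Of 14 such enzymes, 1 was higher (7.14%, against 6.35% of all genes) and 4 lower (28.6%, against 4.08%), with a median of −0.007. The call of *Asns* rested on most libraries, since it was lost with edgeR and in 12 of the 16 fits without 1 library (*Padj* up to 0.261), while without BOTH replicate 2 its fold change was 0.44. Calls were also lost for *Nupr1* without BMAL1 replicate 4 or BOTH replicate 3, and for *Cebpg*, a partner of ATF4, without BOTH replicate 2. *Shmt2* lost its call without BMAL1 replicates 2, 3 or 4 or BOTH replicate 1, and *Cebpb* without BMAL1 replicate 3 or BOTH replicates 1 or 3. *Slc7a1* lost it without BMAL1 replicates 1, 2 or 4 or BOTH replicates 2 or 3. The count over these fits was 16 to 20.

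CHREBP against BMAL1 had 6 members higher (18.2%, against 2.9% of genes) and none lower (0.915% of genes), beside all 10 interferon-induced genes (median 5.14). *Atf3* rose by 0.64 ± 0.13 (*Padj* = 0.000108), and its call was kept without any 1 library. The others were *Ppp1r15a* (0.47), *Trib3* (0.42), *Aldh18a1* (0.32), *Pck2* (0.24) and *Slc3a2* (0.19), each of which was lost without at least 1 library. The count fell to 3 without BMAL1 replicate 4 or CHREBP replicate 1. *Ppp1r15a*, the least firm, had overlapping groups and was also lost with edgeR and with no filter on low counts.

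BOTH against CHREBP asks what *Bmal1* esiRNA added where *Chrebp* esiRNA was present, in libraries of the same column, but the total esiRNA was also higher in BOTH (200 nM against 100 nM). Here 3 members were higher (9.09%, against 0.843% of genes) and none lower (0.151% of genes). All 10 interferon-induced genes had a positive fold change (median 0.90), with 0 called by DESeq2 and 3 at an unadjusted p under 0.05, and their part in the result was not tested. *Ddit3* had 185, 166, 161 and 138 normalized counts in CHREBP and 217, 218, 248 and 189 in BOTH (0.42 ± 0.13, *Padj* = 0.0931). *Psph* had 1164, 979.6, 1041 and 1073 and 1273, 1200.3, 1276 and 1354 (0.26 ± 0.08, *Padj* = 0.066). Both pairs of groups were apart, though narrowly in *Ddit3*. *Slc3a2* rose by 0.19 (*Padj* = 0.078), with overlap through CHREBP replicate 1 (3141). None of the 3 was called with edgeR, and none in the fits without CHREBP replicate 2, 3 or 4 or BOTH replicate 3. Without CON replicate 1 or BOTH replicate 2 there was 1, and without CHREBP replicate 1 there were 5. In the 10 enzymes, all fold changes were positive (median 0.15) and 5 had groups apart, as did 1.94% of all genes with BOTH the higher group. *Atf4* differed by 0.19 (interval 0.06 to 0.32, *Padj* = 0.175).

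The interaction term gives the effect of *Bmal1* esiRNA in the presence of *Chrebp* esiRNA minus its effect in the absence of it. It also equals the 200 nM groups (CON and BOTH) minus the 100 nM groups (BMAL1 and CHREBP), so an effect of total esiRNA cannot be told apart from it. It was positive and called for 6 members (18.2%, against 1.2% of genes) and negative and called for none (0.267% of genes), with 28 of 33 above 0 and a median of 0.28. Of the 10 interferon-induced genes 9 were called positive, with a median of 3.05, and their part in the result was not tested. The fold change of *Psph* was −0.20 in BMAL1 against CON, where it was not called, and 0.26 in BOTH against CHREBP, and the difference was 0.46 ± 0.11 (*Padj* = 0.00859). *Mthfd2* had 1360.0, 1180.1, 1328 and 1523 normalized counts in CON, 1431, 1027, 1118 and 1230.0 in BMAL1, 1274, 1225, 1282 and 1413 in CHREBP and 1441, 1583, 1602 and 1727 in BOTH (0.46 ± 0.14, *Padj* = 0.0487). *Cth* had 302, 212, 222 and 240.0 in CON, 232, 142, 199 and 216 in BMAL1, 244, 195, 239.9 and 235 in CHREBP and 285, 293, 277 and 298 in BOTH (0.65 ± 0.19, *Padj* = 0.0558). In these enzymes the BOTH group was the highest of the 4 by its mean and BMAL1 the lowest. *Phgdh* (0.30, *Padj* = 0.0425) followed the same order. *Slc3a2* (0.25, *Padj* = 0.0747) did so too. *Nupr1* had 96.1, 134, 159 and 160.0 in CON, 105, 104, 107 and 94.1 in BMAL1, 124, 99.8, 127 and 80.9 in CHREBP and 138, 119, 176 and 159 in BOTH (0.87 ± 0.25, *Padj* = 0.0425). Its means were highest in BOTH and CON, though CON replicate 1 lay among the BMAL1 and CHREBP libraries.

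*Psph* was the only 1 of the 6 also called with edgeR, and the only 1 kept in every fit without 1 library. The count fell to 3 without CON replicate 1, CON replicate 3 or CHREBP replicate 4, and to 2 without BMAL1 replicate 2 or CHREBP replicate 2. *Cth* lost its call without BMAL1 replicate 2, CHREBP replicate 2 or CON replicate 1, and *Slc3a2* in 12 of the 16. *Phgdh* lost it in 5 of these fits, and *Mthfd2* and *Nupr1* in 6 each. For the factors of the axis the term did not pass the test. It was 0.19 in *Atf4* (interval 0.01 to 0.37), 0.35 in *Ddit3* (−0.03 to 0.72) and 0.18 in *Trib3* (−0.17 to 0.53).

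**Figure D4:**
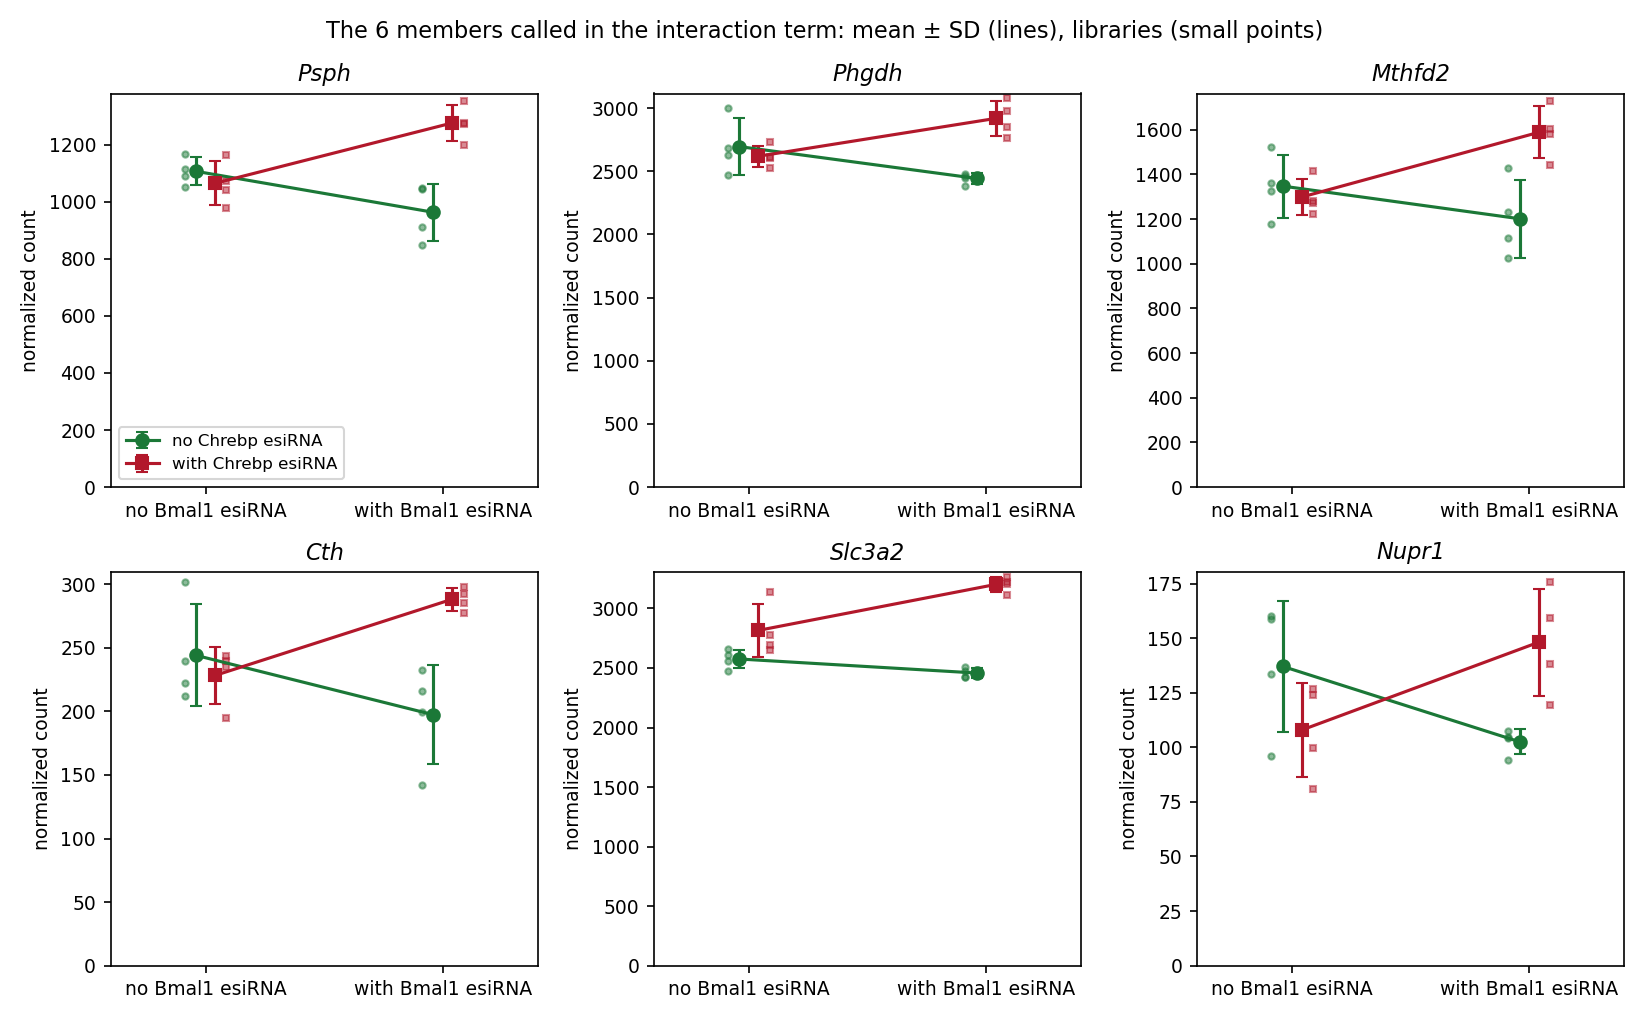
Normalized counts (vertical axes, from 0) of the 6 members called in the interaction term, without and with *Bmal1* esiRNA (horizontal axes), in cells without (green circles) and with (red squares) *Chrebp* esiRNA. Lines join group means with SD, and small points are the 4 libraries. The green lines fall and the red lines rise, for example in *Psph* from 1106 to 963 and from 1065 to 1276.

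A likelihood ratio test over the 4 esiRNA groups called 18 of the 33 members (54.5%, against 9.92% of genes), and 16 to 19 when 1 library was left out. The strongest was *Atf3* (*Padj* = 1.01e-14), followed by *Slc3a2* (*Padj* = 1.15e-09) and *Ddit3* (*Padj* = 1.74e-09). *Asns* (*Padj* = 0.335) was not among them. As a description, the mean of log2(normalized count + 1) over the 30 members with a mean of at least 50 was 9.02 ± 0.03 (SD, n = 4) in CON and 8.93 ± 0.06 in BMAL1. CHREBP cells had 9.12 ± 0.07 and BOTH cells 9.29 ± 0.04. It was 9.15 ± 0.05 in BSA and 9.13 ± 0.03 in PAL, and the 4 BOTH libraries lay above every library without esiRNA. For the 10 enzymes, PAL (10.15 to 10.28) and BOTH (10.11 to 10.36) were of like height and BMAL1 the lowest (9.79 to 10.00).

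Of the kinases that phosphorylate eIF2, *Eif2ak2* moved with the esiRNA groups. It encodes PKR, which is activated by double-stranded RNA and is itself induced by interferon. *Eif2ak2* had 56.8, 46.3, 55.9 and 56.0 normalized counts in PAL, 65.5, 132, 131 and 90.4 in CON, 80.1, 55.2, 79.5 and 99.6 in BMAL1, 444, 319, 242 and 306 in CHREBP and 394, 415, 358 and 202 in BOTH. All CHREBP and BOTH libraries were above all others, by 1.64 ± 0.29 (*Padj* = 2.31e-06) and 1.70 ± 0.29 (*Padj* = 2.54e-07) against CON on the log2 scale. CON was itself above PAL (0.97, *Padj* = 0.00166). The other 14 genes of the eIF2 list, including the kinases *Eif2ak1*, *Eif2ak3* and *Eif2ak4*, were not called in CHREBP or BOTH against CON. The 10 interferon-induced genes examined (*Ifit1*, *Ifit2*, *Ifit3*, *Isg15*, *Oas3*, *Oasl2*, *Mx2*, *Rsad2*, *Cxcl10* and *Irf7*) moved with the same groups, and all 10 were called higher in CHREBP and in BOTH against CON. Their mean log2(normalized count + 1) ranged over the libraries from 9.59 to 10.88 in CHREBP and from 10.58 to 11.50 in BOTH. In CON it was 4.38 to 7.79, in BMAL1 4.52 to 5.24 and in PAL 2.29 to 2.80. Their part in the changes of the 33 members was not tested. In CON against PAL, 8 of the 9 interferon-induced genes tested were higher (88.9%, against 1.59% of all genes).

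**Figure D5:**
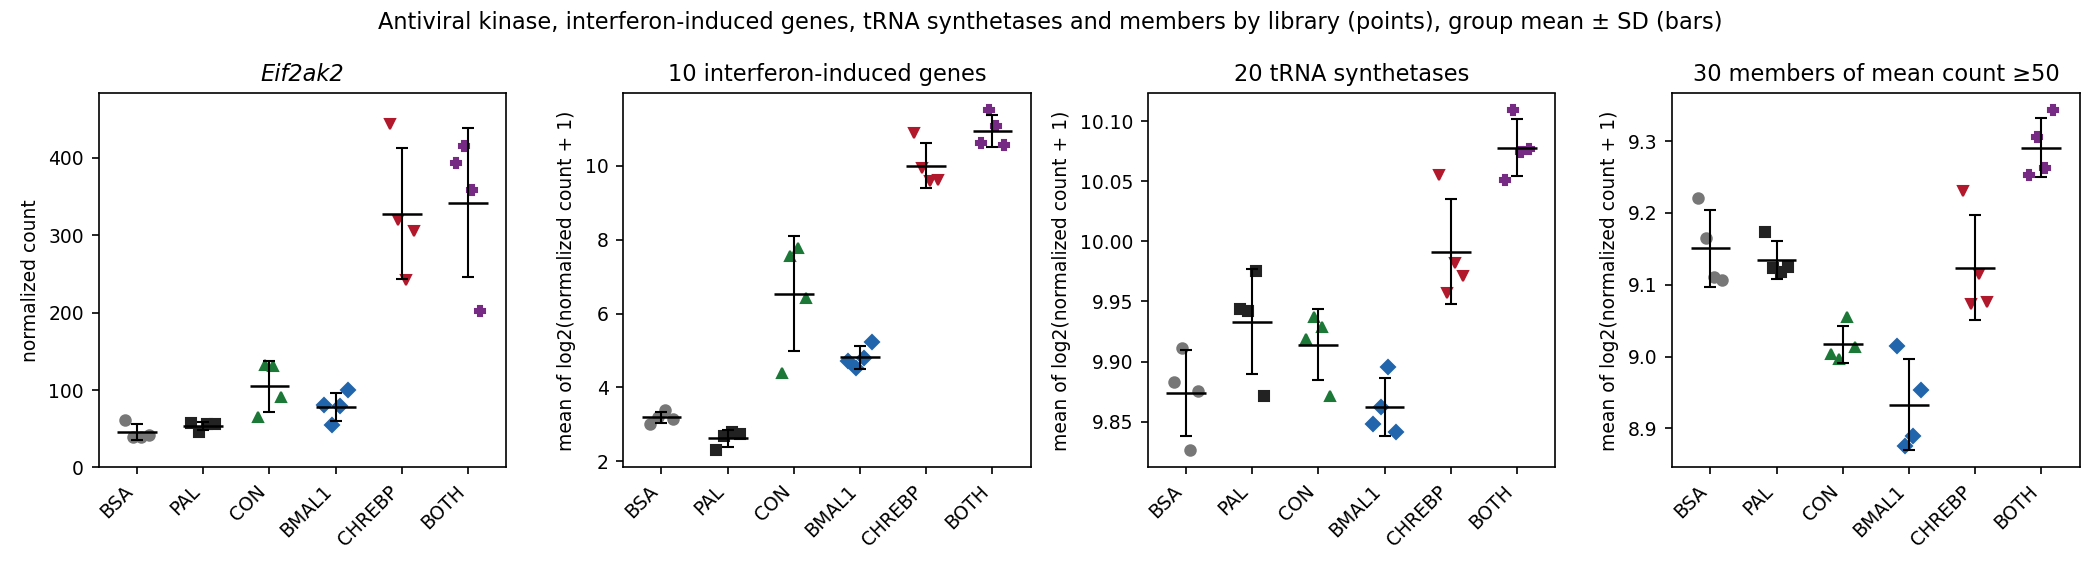
*Eif2ak2* (normalized counts, axis from 0) and mean log2(normalized count + 1) of 10 interferon-induced genes, 20 tRNA synthetases and the 30 members of mean count 50 or more (axes not from 0), in each library (points) with group mean and SD (bars). *Eif2ak2* and the interferon-induced genes are highest in both CHREBP and BOTH, and the last 2 panels are highest in BOTH.

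The cytosolic tRNA synthetases charge tRNAs and are a known group of ATF4 targets. Against CON, 8 of 20 were higher in BOTH (40%, against 5.99% of all genes), from 0.18 in *Iars* to 0.37 in *Vars*, with a median of 0.18. In CHREBP against CON, DESeq2 called none (2 of 20 at an unadjusted p under 0.05), with a median of 0.08. Against BMAL1, 10 of 20 were higher in BOTH (50%, against 6.35% of all genes) and 3 of 20 in CHREBP (15%, against 2.9%). *Mars*, which charges methionine, had 766, 744, 705 and 713 normalized counts in CON, 782, 731, 736 and 712 in CHREBP and 938, 917, 978 and 899.6 in BOTH, and its interaction term was 0.32 (*Padj* = 0.0379). *Cars*, for cysteine, had an interaction of 0.47 ± 0.09 (*Padj* = 0.000302). *Cars* was also the 1 synthetase called lower in BMAL1 than in CON (−0.22, *Padj* = 0.0893). In both genes BOTH had the highest mean of the esiRNA groups. Of the 14 further ATF4 targets tested, *Bbc3* and *Got1* were higher in BOTH than in CON (0.44 and 0.30), which is 14.3% against 5.99% of all genes. *Tnfrsf10b* was lower (−0.45), which is 7.14% against 3.75%. *Fgf21*, a hepatic hormone under ATF4 control, had too few counts to be tested. Of 18 further amino acid transporters, 13 had enough counts to be tested and 3 were higher in BOTH than in CON (23.1%, against 5.99% of all genes). *Slc25a22*, a mitochondrial glutamate carrier, was higher by 0.92 in CHREBP and 1.47 in BOTH. *Slc1a4*, an exchanger of serine and alanine, was higher in BOTH by 0.38 and *Slc6a6*, which imports taurine, by 0.16.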

How the data were processed

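For each of 24 BRB-seq libraries the authors deposited raw counts of reads per Ensembl gene, made with STAR on mm10 and HTSeq (featureCounts is also named), neither normalized nor pooled over replicates. Versions, annotation, use of strand and handling of molecular identifiers were not given in the sources used here. Lines of HTSeq that name no gene (5) were left out. Groups were taken from the sample labels.

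Genes whose counts summed to 25 or more in the libraries of a fit were tested with DESeq2 1.42.0 in R 4.3.3 (Wald test, two-sided), and calls used a Benjamini-Hochberg adjusted p under 0.1. PAL against BSA and CON against PAL were fitted on their own 8 libraries each and the 16 esiRNA libraries in one fit, with a likelihood ratio test over its 4 groups. Fold changes are log2 and not shrunken, with the standard error of the fit, and 95% intervals assume a normal error. DESeq2 gives no adjusted p to some genes of low count, and these were left as such. Normalized counts are counts divided by median-ratio size factors over all 24 libraries. Alternatives were edgeR 4.0.16 (quasi-likelihood test), TMM factors, no filter, the replicate number as a block, all 24 libraries in one fit and leaving out each library. The scripts were tested on simulated data. Replicate pairs of a group differed by 2.69 to 23.1 times the counting variance, so none held the same library counted again, though separate libraries of 1 culture would differ too. Total gene counts were 5399700 to 11237474, and members of low count were limited by depth.

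Coordinates and promoter sequences came from RefSeq on GRCm38.p6, the build of mm10, and overlaps from GENCODE M21. Shared 3′ ends were words of 60 bases in the last 500 bases of transcripts. The members, the context lists and the genes named were chosen with earlier results of these data known. All called members were named in each comparison of 2 groups and in the interaction, but not in the likelihood ratio test. Some uncalled members were named too. *Atf4*, *Ddit3*, *Trib3*, *Chac1* and *Asns* were given whether called or not in PAL against BSA, CON against PAL, and CHREBP and BOTH against CON. A context list of further serine, one-carbon and proline enzymes is not reported here.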

Additional observations from a re-analysis of the deposited data

Results flagged for a closer look

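In 8 of the 198 member-by-group sets of 4 libraries, 1 library stood apart from the others by more than Dixon's 95% limit for 4 values, and about 9.9 such sets are expected by chance at 1 in 20. CHREBP replicate 1 had 1028 normalized counts of *Atf3*, against 664 to 715 in the other libraries of its group, and without it *Atf3* remained called in CHREBP against CON. BOTH replicate 2 had 1336 of *Asns*, against 2087 to 2230, and this library decided whether *Asns* was called higher in BOTH than in CON. CON replicate 4 had 391 of *Slc7a1* (433 to 440 in the others) and 206 of *Vldlr*, the receptor for very low density lipoprotein (253 to 260). CON replicate 1 had 4.49 of *Slc7a5* (9.44 to 10.4) and CON replicate 2 had 181 of *Slc1a5*, a glutamine importer (224 to 230). BMAL1 replicate 3 had 4096 of *Eif4ebp1* (3801 to 3842), and BSA replicate 4 had 1026 of *Pck2* (1112 to 1119). The 8 sets involved 7 libraries, and CON replicate 4 was the one that recurred.

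The interaction term of DESeq2, the difference between BOTH and CHREBP minus that between BMAL1 and CON, was called for *Psph* (0.46 on the log2 scale), *Mthfd2* (0.46), *Cth* (0.65), *Nupr1* (0.87), *Phgdh* (0.30) and *Slc3a2* (0.25) among the members and for the tRNA synthetases *Cars* (0.47) and *Mars* (0.32). In each the fold change was above 0 in BOTH against CHREBP, and in all but *Mars* it was below 0 in BMAL1 against CON. Total esiRNA was 200 nM in BOTH and CON and 100 nM in the other 2 groups, and cannot be told apart from the interaction.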

How the results depend on the processing

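Over 5 alternatives (edgeR, TMM factors, no filter on low counts, the replicate number as a block, and all 24 libraries in one fit), 48 of 64 called gene results kept their call, 34 did so also when each library was left out, and none reversed. The calls lost were 12 with edgeR, 7 with the replicate block, 6 with all 24 libraries, 1 with no filter and 0 with TMM factors. Counts of members moved by more than 1.5 times as follows. In PAL against BSA 3 members in place of 5 were higher with all 24 libraries. In CHREBP against CON it was 3 in place of 5 with the replicate block (*Trib3*, *Atf3* and *Cebpb*). In BOTH against CHREBP it was 0 in place of 3 with edgeR, and in the interaction 1 in place of 6 with edgeR. With 1 library left out, members higher ranged from 3 to 5 in PAL against BSA, 0 to 1 in CON against PAL, 2 to 5 in CHREBP against CON, 9 to 14 in BOTH against CON, 0 to 5 in BOTH against CHREBP, 16 to 20 in BOTH against BMAL1, 3 to 7 in CHREBP against BMAL1 and 2 to 9 in the interaction, and members lower from 2 to 5 in CON against PAL. The cause was not tested beyond the smaller number of libraries.

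With the block, calls were lost for *Slc7a3* in CON against PAL, *Atf5* and *Ddit3* in CHREBP against CON, *Ddit3* and *Slc3a2* in BOTH against CHREBP, *Ppp1r15a* in CHREBP against BMAL1 and *Slc3a2* in the interaction, and gained for *Mthfd2* in BOTH against CON and against CHREBP, *Psat1* in the interaction and *Shmt2* in the likelihood ratio test. It changed no other call of a member. Replicates with the same number did not deviate together on average, so the numbers were not taken as pairs. The mean correlation was 0.03 in PAL and BSA (−0.01 to 0.08 over single pairs) and 0.09 in CON and PAL (−0.03 to 0.17). In the esiRNA groups it was 0.02 (−0.28 to 0.32). Over all genes, the block gave 539 higher and 649 lower in PAL against BSA in place of 853 and 975, and 132 and 54 in CON against PAL in place of 206 and 119. In BMAL1 against CON edgeR gave 4 and 10, the block 6 and 16 and all 24 libraries 35 higher, in place of 23 and 45. In BOTH against CHREBP edgeR gave 48 and 5 in place of 117 and 21, and the block 10 lower. In the interaction edgeR gave 113 and 9 in place of 167 and 37, and in CHREBP against BMAL1 74 lower in place of 127. With 1 library left out, all genes called higher ranged from 119 to 203 in CON against PAL (lowest without CON replicate 3), 4 to 43 in BMAL1 against CON (without CON replicate 3 and BOTH replicate 4), 49 to 182 in BOTH against CHREBP (without CHREBP replicates 3 and 1) and 88 to 240 in the interaction (lowest without CON replicate 3). Those called lower ranged from 61 to 140 in CON against PAL (lowest without CON replicate 3), 11 to 85 in BMAL1 against CON (without CON replicates 2 and 1), 56 to 202 in CHREBP against CON (without CON replicate 4 and BOTH replicate 4), 7 to 64 in BOTH against CHREBP (without CHREBP replicate 3 and BOTH replicate 4), 59 to 191 in CHREBP against BMAL1 (without CHREBP replicate 1 and BOTH replicate 4) and 13 to 91 in the interaction (without BMAL1 replicate 2 and BOTH replicate 4). The other counts in 1 direction stayed within 1.5 times.

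Fold changes with a left-out library were followed for 77 gene results, not for every member in every comparison. Those whose sign turned were near 0 and not called. In PAL against BSA they were *Ddit3* (−0.019 to 0.11), *Chac1* (−0.14 to 0.10) and *Asns* (−0.055 to 0.081). The others were *Atf4* in CON against PAL (−0.040 to 0.033), and *Asns* in CHREBP (−0.078 to 0.033) and BOTH (−0.0066 to 0.21) against CON. *Slc7a5*, *Slc7a11* and *Ddit4*, with means under 50 normalized counts, were limited by depth.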
